A study of Homo sapiens with 7 samples.

Results

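The genes described here are 38 genes of protein folding in the endoplasmic reticulum and of the unfolded protein response, among 60591 rows of a gene count table. They were chosen by name, as chaperones, disulfide enzymes, degradation factors, translocon subunits and stress sensors, and all 38 were found in the table. The libraries came from TE11, a human line labelled as cells of squamous carcinoma of the esophagus. One group had 4 libraries of cells given 200 µM diclofenac, a nonsteroidal anti-inflammatory drug, for 48 h. The other had 3 libraries of cells given 0.07% DMSO, the solvent (vehicle), for 48 h. All libraries were made from total RNA of the same cell line with a directional kit, and no label tells whether replicates were grown as separate cultures. The p-values therefore reflect the spread among these libraries alone, which may be technical.

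The endoplasmic reticulum folds proteins bound for secretion, membranes and the organelles of the secretory route. When unfolded protein accumulates there, 3 membrane sensors respond. IRE1 (gene ERN1) removes an intron from XBP1 mRNA so that an active transcription factor is made, ATF6 is cut in the Golgi to free its own transcription factor part, and PERK (gene EIF2AK3) slows translation and favours ATF4 and CHOP (gene DDIT3). XBP1 and ATF6 raise chaperones, folding enzymes and the machinery of ER-associated degradation (ERAD), which moves misfolded proteins back to the cytosol for the proteasome. Counts per gene do not separate the spliced from the unspliced form of XBP1 mRNA, or the cut from the whole ATF6 protein, so the values below are levels of mRNA only.

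Many of these genes are known targets of ATF6 and XBP1 through short promoter elements, and the stretches below are shown because they mark which members carry such an element whatever their change here. Promoter windows of 300 bases, from 250 before to 50 after an annotated start, were read from RefSeq on GRCh38.p14, where 35 of the 38 members matched. The other 3, PDIA3, DERL1 and DERL3, are named only. The ER stress response element (ERSE), which is CCAAT, then 9 bases of any kind, then CCACG, was searched on both strands. It was present in a window of 8 of the 35 members (22.9%), against 25 of all 27305 genes with a window (0.0916%), the 8 included. Since known targets were among the members chosen, this excess follows from the choice and is no result of these data. The stretches are printed 5′ to 3′ on the strand that carries the element, with 10 bases on either side where the window allows and the element in capitals.
HSPA5 (chr9:125241381-125241419, minus strand): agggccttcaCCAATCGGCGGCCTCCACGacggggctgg
HSP90B1 (chr12:103930206-103930244, plus strand): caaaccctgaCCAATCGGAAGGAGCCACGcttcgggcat
HSP90B1 (chr12:103930311-103930349, minus strand): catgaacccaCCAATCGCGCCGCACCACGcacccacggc
CALR (chr19:12938374-12938412, minus strand): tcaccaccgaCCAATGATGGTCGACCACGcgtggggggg
CANX (chr5:179698768-179698806, plus strand): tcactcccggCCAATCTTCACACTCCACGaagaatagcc
CRELD2 (chr22:49918544-49918582, minus strand): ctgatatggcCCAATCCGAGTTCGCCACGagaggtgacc
PDIA6, second listed start (chr2:10812843-10812881, minus strand): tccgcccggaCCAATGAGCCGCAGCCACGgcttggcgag
ERO1B (chr1:236282173-236282208, plus strand): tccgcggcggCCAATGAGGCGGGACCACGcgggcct
XBP1 (chr22:28800593-28800631, minus strand): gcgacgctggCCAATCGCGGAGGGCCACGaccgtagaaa

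A shorter relative is ERSE-II (ATTGG, 1 base of any kind, then CCACG, both strands). It was present in 3 members, against 19 of the 27305 genes (0.0696%), these 3 included, and the same limit holds. It stood at 2 places in HYOU1.
HYOU1 (chr11:119057370-119057400, plus strand): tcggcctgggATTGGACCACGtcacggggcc
HYOU1 (chr11:119057264-119057294, plus strand): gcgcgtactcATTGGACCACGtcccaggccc
SDF2L1 (chr22:21642104-21642134, minus strand): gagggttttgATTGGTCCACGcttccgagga
HERPUD1 (chr16:56932015-56932045, plus strand): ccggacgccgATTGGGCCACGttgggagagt

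A looser form of the element needs only CCAAT, 9 bases of any kind and CCA, and so includes every full ERSE. It was present in 10 members and in 377 of the 27305 genes (1.38%), with HERPUD1 and SEL1L as the members added to the 8 above. The core TGACGTGG, which XBP1 is known to bind, was present in HYOU1 and SEC62 and in 253 genes (0.927%), and in HYOU1 it overlapped an ERSE-II. The letters TGATGNAA, which occur in elements bound by C/EBP and ATF4, were present in HERPUD1 and CREB3L2 and in 1217 genes (4.46%). Longer stretches of HSPA5 and HERPUD1 are shown as examples with more than 1 match. HSP90B1 and CALR also held a looser form apart from their full ERSE, and these are not shown. In CANX the full ERSE was present in windows of other listed starts too, and that of the first is shown. In HSPA5 the capitals mark a looser form followed by a full ERSE. In HERPUD1 they mark, in order, TGATGNAA read on the other strand, ERSE-II and the looser form.
HSPA5 (chr9:125241374-125241483, minus strand): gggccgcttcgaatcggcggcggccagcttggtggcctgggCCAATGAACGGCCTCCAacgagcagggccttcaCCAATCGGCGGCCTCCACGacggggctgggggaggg
HERPUD1 (chr16:56931952-56932091, plus strand): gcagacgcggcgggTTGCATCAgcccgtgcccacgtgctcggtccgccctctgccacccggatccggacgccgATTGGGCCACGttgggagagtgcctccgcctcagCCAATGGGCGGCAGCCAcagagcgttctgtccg

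Values are raw counts deposited by the authors, given here as normalized CPM, that is, counts relative to a library total that was scaled by TMM factors. Totals ran from 19878696 to 26490829 counts per library, so 1 count was worth 0.0377 to 0.0503 CPM and every member stood well above that. Of 8 markers of squamous epithelium, 2 (SOX2 and PAX9) reached 1 CPM in every library, and KRT5, KRT14, KRT6A, KRT13, TP63 and DSG3 were near or at 0, so these markers did not bear out the labelled cell type. The 8 summed to 14.4 to 16.1 CPM under diclofenac and 16.5 to 19.4 CPM under vehicle. Epithelial markers reached 1 CPM in every library for 4 of 5 genes, summing to 78.2 to 89.5 CPM under diclofenac and 77.4 to 84.9 CPM under vehicle. Within that sum KRT8 was 2.05-fold and EPCAM 1.45-fold as high under diclofenac as under vehicle, and KRT18 0.841-fold, each passing edgeR. None of 3 leukocyte and 2 endothelial markers reached 1 CPM in every library. Of 4 fibroblast markers COL1A1 did, and the 4 summed to 13.3 to 15.3 CPM under diclofenac and 17.0 to 19.5 CPM under vehicle; the part of these differences in the results was not tested. In such bulk libraries, fewer cells of a type and less RNA per cell cannot be told apart.

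Under diclofenac, 4 of 5 genes of sensors and factors and 4 of 10 degradation factors were higher, against 30.2% of the 18311 genes tested. For the degradation factors that count ran from 3 to 9 with other scalings between libraries. Of the 7 members with a mean level of 8 log2 CPM or more, 4 were lower, against 488 of 656 tested genes at that level. XBP1 (1.88-fold) and DNAJB9 (1.82-fold), which differ by less than 1 SE, had the largest fitted rises of the 38, followed by HERPUD1 (1.65-fold) and SEL1L (1.53-fold). DERL3 and SDF2L1 had the largest fitted falls, at 0.504 and 0.529 of the vehicle level. HSPA5, which encodes BiP, the central chaperone of the compartment, did not pass the test with TMM factors. It was called higher under some other scalings, as given below.

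All 38 members passed the filter on low counts, and 27 (71.1%) were called by edgeR's quasi-likelihood test at an adjusted p under 0.05, against 59.7% of the 18311 genes tested. Of these, 16 (42.1%) were higher and 11 (28.9%) lower, against 30.2% higher and 29.5% lower among all genes. Diclofenac and vehicle libraries did not overlap for 28 members (73.7%), against 58.5% of all genes. The median log2 fold change of the members was 0.09, against 0.02 over all genes tested. Only 6 called members changed by 1.5-fold or more, 4 higher (XBP1, DNAJB9, HERPUD1 and SEL1L) and 2 lower (SDF2L1 and DERL3).

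The balance of rises and falls depended on the scaling between libraries. With upper-quartile factors 23 members were higher and 8 lower, and with total counts alone 26 were higher and 8 lower, against 16 and 11 with TMM factors. Over all genes the split was 6994 against 4171 with upper-quartile factors and 8615 against 3039 with total counts alone, against 5535 and 5402 with TMM factors. Under total counts the median of all genes was shifted by 0.18 (log2), so each direction given below is relative to the typical gene. Of the 27 called members, 14 that rose and 8 that fell kept their direction and their call under each of the 15 other settings run for single members. The exceptions were HSP90B1 and DERL2 among the rises and HYOU1, PDIA3 and PDIA4 among the falls.

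**Figure D1:**
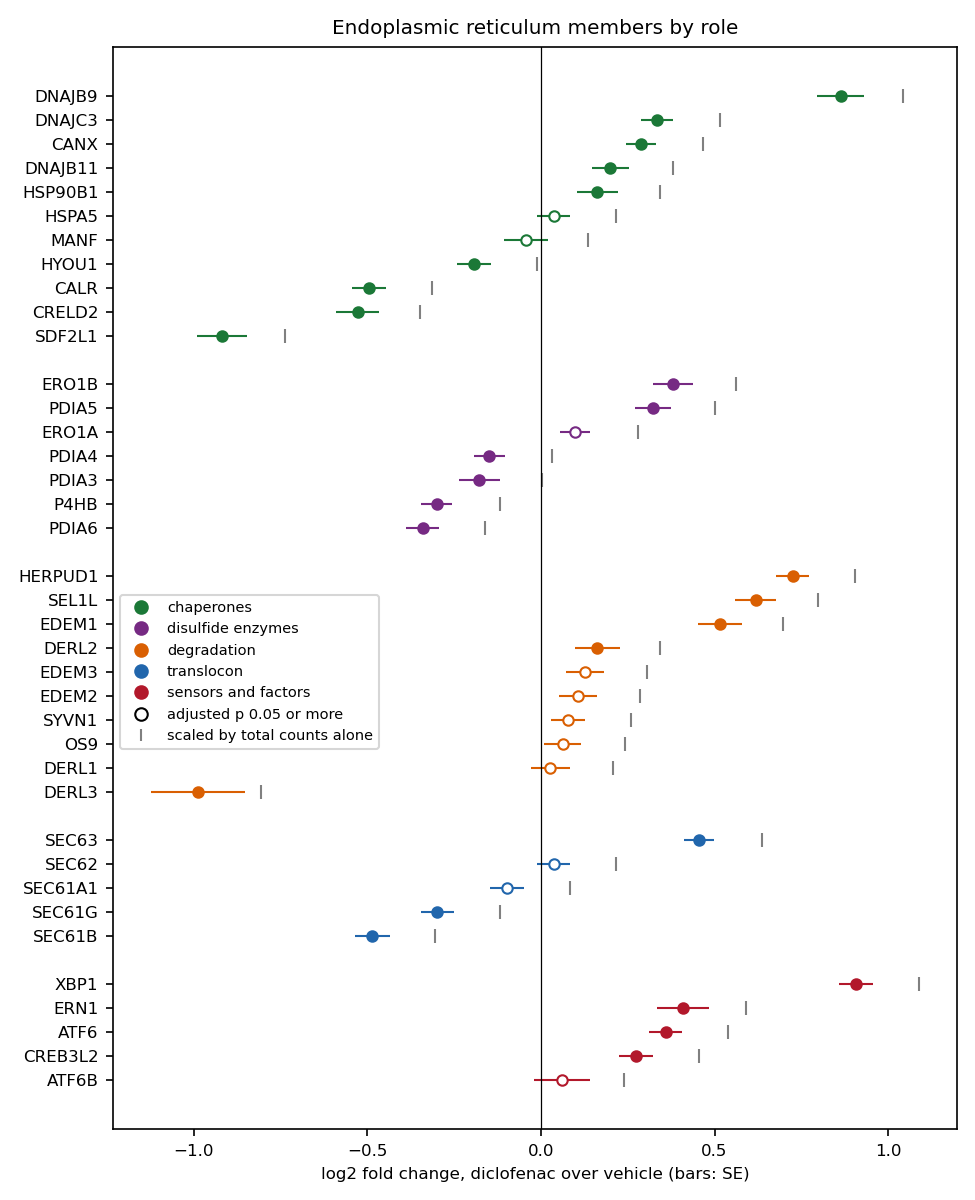
Log2 fold change of diclofenac over vehicle for the 38 members by role, with bars of 1 SE; filled points passed edgeR at an adjusted p under 0.05 and open points did not. Grey ticks give the value when libraries are scaled by total counts alone, where every member sits further to the right and PDIA3, PDIA4, SEC61A1 and MANF change sign; XBP1 and DNAJB9 lie farthest right, DERL3 and SDF2L1 farthest left.

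The sensors and transcription factors were the role group with the most even direction, with 4 of 5 members higher, none lower and ATF6B not passing (5 higher by total counts alone). XBP1, the transcription factor made from the mRNA that IRE1 splices, stood at 297, 299, 328 and 307 normalized CPM in the 4 diclofenac libraries, against 171, 163 and 158 in the 3 vehicle libraries. The groups were far apart, with the lowest diclofenac library well above the highest vehicle library. The log2 fold change was 0.91 (SE 0.0495, edgeR adjusted p = 9.91e-11). The counts of its pseudogene XBP1P1 came to 0.0412% of its own.

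ERN1, the sensor IRE1 itself, was a low-level gene at 15.1, 15.5, 14.3 and 15.8 normalized CPM under diclofenac, against 12.3, 11.3 and 10.7 under vehicle. Every diclofenac library lay above every vehicle library, and the log2 fold change was 0.41 (SE 0.0745, edgeR adjusted p = 1.34e-04). ATF6, the sensor cut in the Golgi, stood at 78.8, 83.1, 75.1 and 81.4 normalized CPM under diclofenac, against 60.8, 62.6 and 62.9 under vehicle. It rose by 0.36 on the log2 scale (SE 0.0471) with no overlap between the groups. Its close relative ATF6B stood at 11.6 ± 0.656 under diclofenac and 11.1 ± 0.744 under vehicle (normalized CPM, SD, n = 4 and 3), with overlapping libraries and a log2 fold change of 0.06 (SE 0.0798). CREB3L2, a membrane-bound factor related to ATF6 that serves secretory cells, rose to 71.3 ± 3.21 normalized CPM under diclofenac, against 59.0 ± 2.62 under vehicle (log2 fold change 0.27, SE 0.0499).

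**Figure D2:**
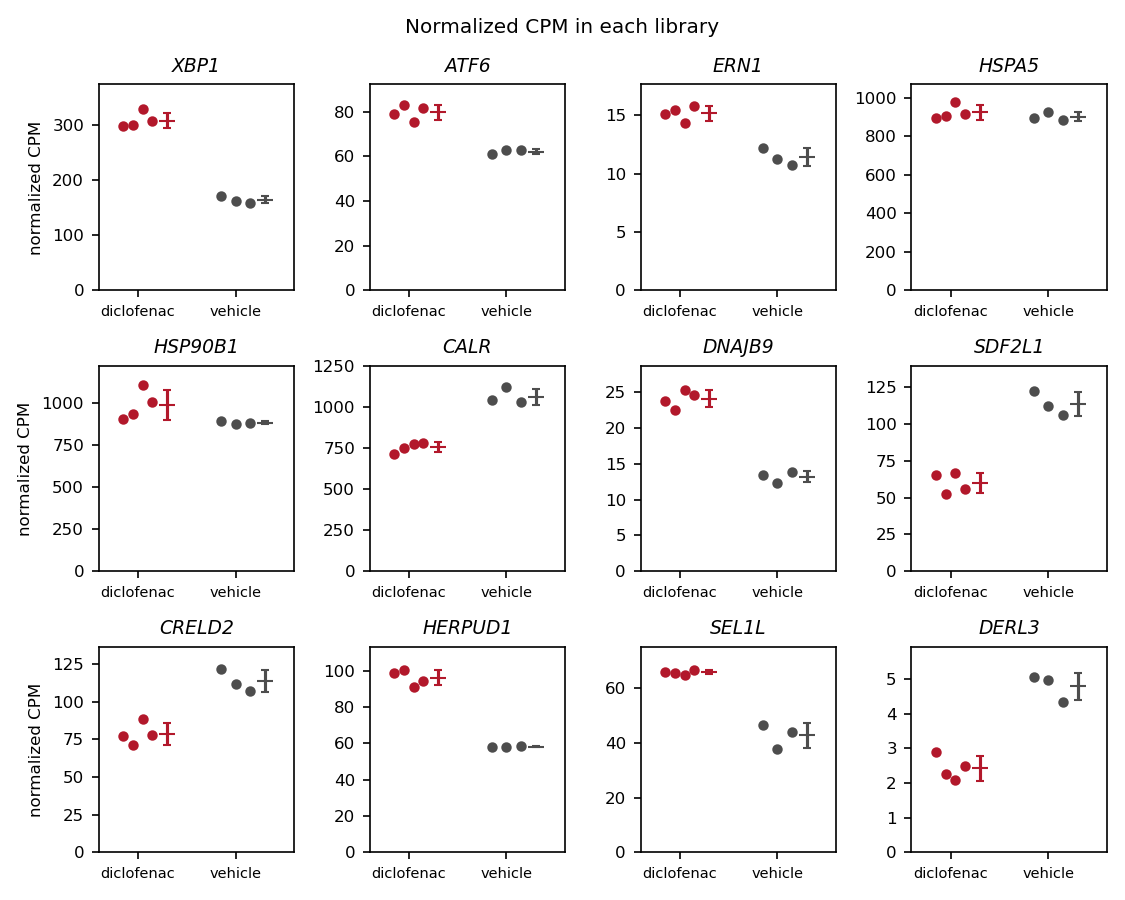
Normalized CPM of 12 members in each library, with the 4 diclofenac libraries on the left and the 3 vehicle libraries on the right of each panel, on axes that start at 0; the cross beside each set is the mean with 1 SD. XBP1, ATF6, ERN1, DNAJB9, HERPUD1 and SEL1L are higher in every diclofenac library, CALR, SDF2L1, CRELD2 and DERL3 are lower in every one, HSPA5 overlaps, and HSP90B1 is spread widely under diclofenac, up to 1111.

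The chaperones, the group most tied to ATF6 and XBP1, split 5 higher against 4 lower, with HSPA5 and MANF not passing. By total counts alone 7 were higher and 3 lower, and with upper-quartile factors 6 and 3. HSPA5 stood at 896, 905, 980 and 917 normalized CPM under diclofenac, against 893, 927 and 884 under vehicle. The groups overlapped and the log2 fold change was 0.04 (SE 0.0475, edgeR adjusted p = 0.523), but it was called higher with upper-quartile factors (0.13, edgeR adjusted p = 0.0298) and by total counts alone (0.22, SE 0.0418, edgeR adjusted p = 1.69e-04).

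HSP90B1, the endoplasmic form of the HSP90 chaperone also called GRP94, stood at 909, 938, 1111 and 1006 normalized CPM under diclofenac, against 897, 880 and 881 under vehicle. All diclofenac libraries were above the vehicle libraries, but 1 stood just above them and replicate 3 far higher. The log2 fold change of 0.16 (SE 0.0593, edgeR adjusted p = 0.0253) fell to 0.10 with an adjusted p of 0.0630 without diclofenac replicate 3. The call was also lost without diclofenac replicate 4 (edgeR adjusted p = 0.0531) and without vehicle replicate 1, 2 or 3 (0.0595, 0.0848 and 0.0805).

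DNAJB9, a J-domain partner of BiP also called ERdj4, rose most among the chaperones. It stood at 23.7, 22.5, 25.2 and 24.6 normalized CPM under diclofenac, against 13.5, 12.3 and 13.8 under vehicle, so every diclofenac library was well above every vehicle library. The log2 fold change was 0.86 (SE 0.0681, edgeR adjusted p = 8.18e-09). DNAJC3, another J-domain partner of BiP that is also known as an inhibitor of PERK, stood at 48.8, 50.6, 48.3 and 48.8 normalized CPM under diclofenac, against 39.3, 39.3 and 38.3 under vehicle. It rose by 0.33 on the log2 scale (SE 0.0468), with little spread in either group. CANX, the membrane-bound lectin chaperone calnexin, rose by 0.29 (SE 0.0427) and DNAJB11 by 0.20 (SE 0.0540).

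SDF2L1, which acts with J-domain partners to hold client proteins in solution, fell most among the chaperones. It stood at 64.9, 52.4, 66.7 and 55.7 normalized CPM under diclofenac, against 122, 112 and 106 under vehicle. The highest diclofenac library lay far below the lowest vehicle library, with a log2 fold change of -0.92 (SE 0.0709, edgeR adjusted p = 6.22e-09). CRELD2, a secreted folding factor, stood at 77.2, 71.2, 88.8 and 77.8 normalized CPM under diclofenac, against 122, 112 and 107 under vehicle. It fell by 0.53 on the log2 scale (SE 0.0623), again with no overlap.

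CALR, the soluble lectin chaperone calreticulin and the partner of CANX in the folding of glycoproteins, was the member with the highest level per length. It fell to 755 ± 30.3 normalized CPM under diclofenac, against 1065 ± 48.9 under vehicle (SD, n = 4 and 3; log2 fold change -0.50, SE 0.0492, edgeR adjusted p = 1.39e-07). HYOU1, an HSP70 relative that exchanges nucleotide on BiP, fell by 0.19 (SE 0.0490), but it did not pass when libraries were scaled by total counts (log2 fold change -0.01) or with upper-quartile factors (-0.10). MANF, a secreted cofactor of BiP, stood at 129 ± 13.5 normalized CPM under diclofenac and 133 ± 3.38 under vehicle, with a log2 fold change of -0.04 (SE 0.0630), which turned to 0.14 and a call of higher by total counts alone (edgeR adjusted p = 0.0443).

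The 11 members with ERSE or ERSE-II were on both sides. Of the 8 with a full ERSE, HSP90B1, CANX, ERO1B and XBP1 were higher, CALR, CRELD2 and PDIA6 were lower and HSPA5 did not pass. Their median log2 fold change was 0.10, against 0.11 in the 27 members with a window and no full ERSE. Over all genes with a window, 18 tested genes had a full ERSE, these 8 members included. Of the 18, 10 were higher and 5 lower, with a median log2 fold change of 0.23. Over all 18311 genes tested, 30.2% were higher and 29.5% lower, with a median of 0.02. The difference was not tested. Of the 3 members with ERSE-II, HERPUD1 was higher and HYOU1 and SDF2L1 were lower. Among all 14 tested genes with it, these 3 included, 3 were higher and 7 lower, beside the same shares over all genes.

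The disulfide enzymes form and rearrange the bonds between cysteines. Of 7 members, 2 were higher, 4 lower and ERO1A did not pass (3 higher and 2 lower by total counts alone and with upper-quartile factors). PDIA6 stood at 285, 276, 297 and 269 normalized CPM under diclofenac, against 368, 359 and 344 under vehicle, a fall of 0.34 on the log2 scale (SE 0.0471) with no overlap. P4HB, protein disulfide isomerase itself and a subunit of collagen prolyl hydroxylase, stood at 498, 503, 504 and 497 normalized CPM under diclofenac, against 623, 635 and 591 under vehicle. It fell by 0.30 on the log2 scale (SE 0.0444, edgeR adjusted p = 1.48e-05), and its diclofenac libraries were all but equal.

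ERO1B, an oxidase that recharges the isomerases, stood at 48.7, 45.3, 45.5 and 47.0 normalized CPM under diclofenac, against 35.4, 32.8 and 39.2 under vehicle. It rose by 0.38 on the log2 scale (SE 0.0586), with every diclofenac library above every vehicle library. PDIA5, an isomerase known to act on ATF6, stood at 36.5, 35.9, 36.7 and 39.0 normalized CPM under diclofenac, against 29.5, 29.4 and 30.0 under vehicle (log2 fold change 0.32, SE 0.0517). ERO1A, the more widely used oxidase, stood at 57.6 ± 1.07 normalized CPM under diclofenac and 53.8 ± 0.556 under vehicle (log2 fold change 0.10, SE 0.0441, edgeR adjusted p = 0.0646). Its libraries did not overlap between the groups, and it was called higher with upper-quartile factors, by total counts alone and with the stricter filter.

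PDIA4, another isomerase, and PDIA3 fell less, at log2 fold changes of -0.15 (SE 0.0442) and -0.18 (SE 0.0589), which turned to 0.032 and 0.0018 by total counts alone. Neither passed with upper-quartile factors, and the call of PDIA3 was also lost without diclofenac replicate 2 (edgeR adjusted p = 0.0604) and without vehicle replicate 2 (edgeR adjusted p = 0.0606). The libraries of PDIA3 overlapped between the groups. PDIA3, the isomerase that works with CANX and CALR, shares its sequence with a pseudogene row, PDIA3P1, whose counts came to 116% of those of PDIA3 over all libraries, so its level is uncertain. PDIA3P1 stood at 218 ± 13.7 normalized CPM under diclofenac and 217 ± 11.7 under vehicle. When PDIA3 was summed with its pseudogene rows, a choice made after the data were seen, the log2 fold change was -0.08 (SE 0.0554, edgeR adjusted p = 0.228).

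Among the degradation factors, 4 of 10 were higher, DERL3 was lower and 5 did not pass. By total counts alone 9 were higher and 1 lower, and with upper-quartile factors 8 and 1. HERPUD1, a membrane protein that gathers the ubiquitin ligase complex, stood at 98.4, 101, 91.2 and 94.1 normalized CPM under diclofenac, against 58.2, 57.9 and 58.3 under vehicle. Its vehicle libraries were nearly identical and all diclofenac libraries far above them (log2 fold change 0.72, SE 0.0470, edgeR adjusted p = 7.84e-10).

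SEL1L, the adaptor that carries substrates to the ligase SYVN1 (HRD1), stood at 66.1, 65.4, 65.0 and 66.7 normalized CPM under diclofenac, against 46.6, 37.6 and 44.1 under vehicle. It rose by 0.62 on the log2 scale (SE 0.0593) without overlap. SYVN1 stood at 64.5 ± 1.43 under diclofenac and 61.1 ± 3.75 under vehicle (normalized CPM), with overlapping libraries and a log2 fold change of 0.08 (SE 0.0493). EDEM1, one of the mannosidase-like proteins that mark glycoproteins for removal, rose to 50.9 ± 4.69 normalized CPM under diclofenac, against 35.6 ± 0.891 under vehicle (log2 fold change 0.51, SE 0.0641). EDEM2 and EDEM3, of the same family, gave 0.11 (SE 0.0535) and 0.13 (SE 0.0555) and did not pass, though their libraries did not overlap between the groups. Both were called higher with upper-quartile factors, by total counts alone and with the stricter filter.

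DERL3, a derlin of the membrane channel for misfolded proteins that is best known from secretory cells, had, with SDF2L1, the largest fitted falls of the 38. It stood at 2.91, 2.25, 2.08 and 2.48 normalized CPM under diclofenac, against 5.07, 4.96 and 4.33 under vehicle, resting on 54 to 62 counts in a diclofenac library and 97 to 125 in a vehicle library. The log2 fold change was -0.99 (SE 0.135, edgeR adjusted p = 6.04e-06), within 1 SE of that of SDF2L1. DERL2 gave 0.16 (SE 0.0646, edgeR adjusted p = 0.0390). Its libraries overlapped, and the call was lost with DESeq2 size factors, with no filter, in the DESeq2 Wald test, and without diclofenac replicate 1 or 2 or vehicle replicate 1 or 3. Without vehicle replicate 1 the value was 0.08 (edgeR adjusted p = 0.305). DERL1 and OS9, a lectin of the ligase complex, gave 0.03 (SE 0.0572) and 0.06 (SE 0.0524) and did not pass.

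The translocon is the channel by which new proteins enter the compartment. Of 5 members, 1 was higher, 2 lower and SEC61A1 and SEC62 did not pass (2 and 2 by total counts alone and with upper-quartile factors). SEC63, which links BiP to the channel, stood at 107, 108, 112 and 111 normalized CPM under diclofenac, against 80.3, 78.8 and 80.3 under vehicle. It rose by 0.46 on the log2 scale (SE 0.0424, edgeR adjusted p = 6.15e-08) without overlap. The counts of its pseudogene row SEC63P1 came to 13.2% of its own, and the sum with its pseudogene rows gave 0.45 (SE 0.0420).

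The small channel subunits fell. SEC61B stood at 78.8, 77.4, 71.9 and 78.8 normalized CPM under diclofenac, against 102, 114 and 106 under vehicle (log2 fold change -0.49, SE 0.0497). SEC61G stood at 80.9, 76.3, 82.6 and 73.9 normalized CPM under diclofenac, against 98.9, 96.5 and 94.1 under vehicle (log2 fold change -0.30, SE 0.0477). Neither overlapped between the groups. SEC61A1, the pore itself, gave -0.10 (SE 0.0494) with overlapping libraries, which turned to 0.08 by total counts alone, and SEC62, a partner of SEC63, gave 0.04 (SE 0.0474).

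The members span a wide range of levels, and the change of a gene went with its level over the whole table. Where the mean level was at least 8 log2 CPM, 488 of 656 tested genes were lower and 66 higher, with a median log2 fold change of -0.29. The 7 members of that class had a median of -0.15, with 4 lower (CALR, PDIA4, PDIA6 and P4HB) and 1 higher (HSP90B1). The 31 members below it had a median of 0.13, with 15 higher and 7 lower. The 17655 tested genes below it had a median of 0.04, with 5469 higher and 4914 lower.

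**Figure D3:**
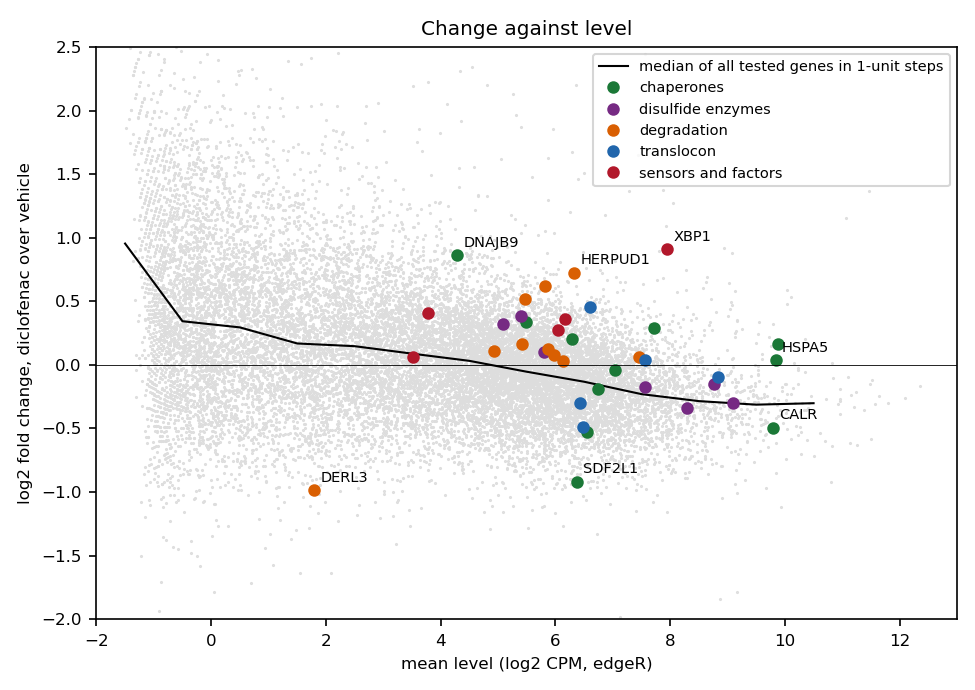
Log2 fold change of diclofenac over vehicle against the mean level in log2 CPM, with members coloured by role, all tested genes in grey and their median in steps of 1 log2 unit as a line; grey points beyond the axes are not drawn. The line falls with level; XBP1 lies well above it at a high level, HSPA5 and HSP90B1 lie above it, and SDF2L1 and CALR lie below it.

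Levels can be compared between genes only per length, here as normalized CPM per kilobase of merged exons in GENCODE 29. Merged exons include those of every annotated transcript, and the annotation used for counting is not known, so places between genes depend on this choice of length. CALR was at the top in both groups, with 278 ± 11.2 per kilobase under diclofenac and 392 ± 18.0 under vehicle. HSPA5 followed with 237 ± 9.70 under diclofenac and 231 ± 5.81 under vehicle, and HSP90B1 with 211 ± 19.1 under diclofenac and 189 ± 1.98 under vehicle. Under diclofenac the ranges of 1 SD around HSPA5 and HSP90B1 overlapped. XBP1 stood in place 5 of 38 under diclofenac, at 102 ± 4.75 per kilobase, and in place 11 under vehicle, at 54.2 ± 2.13. SDF2L1 stood in place 10 under diclofenac, at 54.5 ± 6.32, and in place 6 under vehicle, at 103 ± 7.53. The lowest places were those of DERL3 and ERN1, with 0.640 ± 0.0945 and 1.40 ± 0.0588 under diclofenac, against 1.26 ± 0.105 and 1.05 ± 0.0715 under vehicle.

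Together, the 38 members took 0.737 ± 0.0107% of all counts under diclofenac and 0.671 ± 0.00502% under vehicle (SD, n = 4 and 3). Shares of all counts correspond to scaling by total counts, under which the median gene changed by 0.20 on the log2 scale. The log2 ratio of the mean shares was 0.14 for all members, 0.09 for the chaperones, 0.41 for the degradation factors, 0.84 for the sensors and factors, 0.11 for the translocon and -0.03 for the disulfide enzymes. The chaperones took 0.361 ± 0.0144% under diclofenac and 0.339 ± 0.00295% under vehicle. The degradation factors took 0.0702 ± 0.00179% under diclofenac and 0.0528 ± 0.000727% under vehicle, and the sensors and factors 0.0512 ± 0.000502% under diclofenac and 0.0286 ± 0.000774% under vehicle, most of it XBP1. The disulfide enzymes took 0.160 ± 0.00204% under diclofenac and 0.163 ± 0.00269% under vehicle.

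Ratios of a pair of genes within a library do not depend on the scaling between libraries. A set of 14 pairs was compared, made of relatives, partners, or genes of different branches of the response. The last kind includes DDIT3, which is no member, to HSPA5. The test was an exact two-sided permutation test over the libraries (35 arrangements), whose smallest possible p is 0.0286. Benjamini-Hochberg adjustment ran over the 14. Of these, 11 pairs reached that smallest p, with an adjusted p of 0.0364 in the exact permutation test. In each of the 11, every diclofenac library lay on 1 side of every vehicle library. Single genes did so in 58.5% of the 18311 tested. Other gene pairs were not compared, so 11 of 14 cannot be called particular to these pairs.

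Several pairs moved unequally, some within a role and some, such as XBP1 and HSPA5, across roles. SDF2L1 relative to DNAJB9 had log2 ratios of 1.45, 1.22, 1.40 and 1.18 in the diclofenac libraries, against 3.18, 3.18 and 2.94 in the vehicle libraries, a difference of -1.79. HSPA5 relative to DNAJB9 averaged 5.27 ± 0.0492 under diclofenac and 6.09 ± 0.123 under vehicle, a difference of -0.83. XBP1 relative to HSPA5 averaged -1.59 ± 0.0102 under diclofenac and -2.46 ± 0.0660 under vehicle, a 1.83-fold higher ratio.

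Some close relatives and partners differed too. ATF6 gained on ATF6B by 0.30 and ERO1B on ERO1A by 0.29 on the log2 scale. EDEM1 gained on EDEM2 by 0.41, SEL1L on SYVN1 by 0.55, PDIA5 on P4HB by 0.62, SEC63 on SEC61A1 by 0.55 and SEC62 on SEC61B by 0.52. The pairs that did not pass were EDEM3 to EDEM2 (0.03, exact permutation p = 0.800), DERL2 to DERL1 (0.14, exact permutation p = 0.0571) and HSP90B1 to DNAJC3 (-0.18, exact permutation p = 0.114), with adjusted p of 0.800, 0.0667 and 0.123 in the same exact permutation tests.

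**Figure D4:**
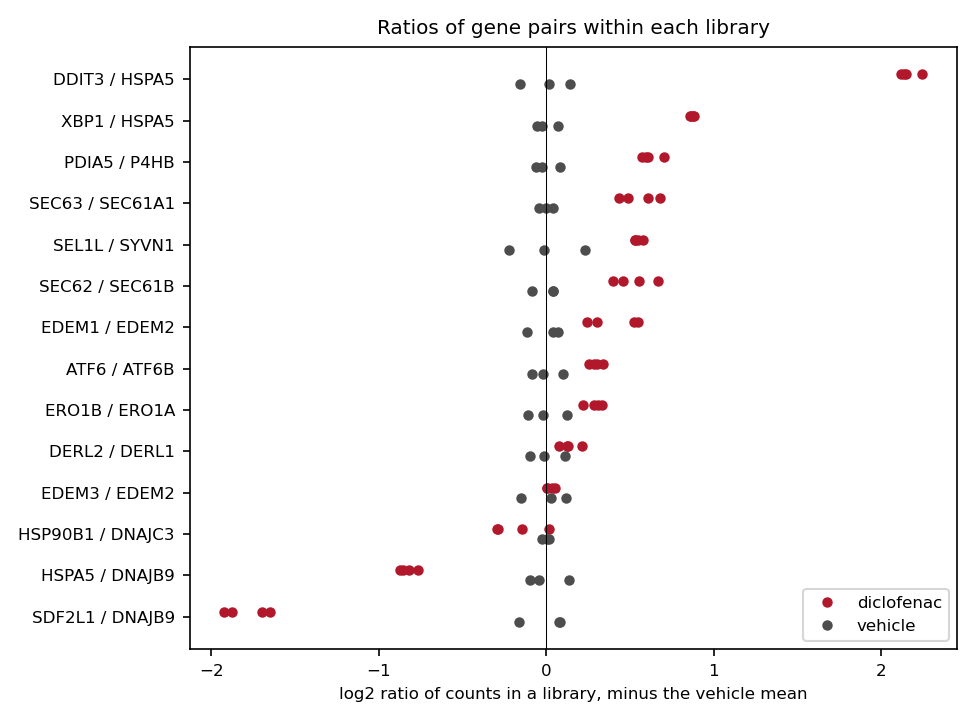
Log2 ratio of counts for 14 gene pairs in each library, minus the vehicle mean, with diclofenac libraries drawn above vehicle libraries in each row. The groups are apart in 11 pairs, from -1.79 for SDF2L1 to DNAJB9 to 2.16 for DDIT3 to HSPA5, and overlap for EDEM3 to EDEM2, DERL2 to DERL1 and HSP90B1 to DNAJC3.

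The third branch, PERK and its downstream genes, was also measured. Of 10 genes listed for it and for stress signalling, 7 were higher and 3 lower (7 and 2 by total counts alone). Of all 18311 genes tested, 30.2% were higher and 29.5% lower (8615 and 3039 genes by total counts alone). EIF2AK3, PERK itself, rose to 23.9 ± 1.27 normalized CPM under diclofenac, against 17.1 ± 1.41 under vehicle (log2 fold change 0.48, SE 0.0689). ATF4, whose translation PERK favours, rose by 0.48 (SE 0.0558). Its targets rose more: DDIT3, the factor CHOP, by 2.20 (SE 0.0774), TRIB3, a pseudokinase, by 1.46 (SE 0.0590), PPP1R15A, a subunit of the phosphatase that undoes PERK's mark, by 1.20 (SE 0.0634), and CHAC1, which breaks down glutathione, by 2.31 (SE 0.0765). These genes also answer to other kinases of the integrated stress response. The ratio of DDIT3 to HSPA5 in a library averaged -4.48 ± 0.0559 under diclofenac and -6.64 ± 0.150 under vehicle on the log2 scale, a 4.48-fold higher ratio. TRAF2, an adaptor that binds IRE1, had the largest fall of this list, at a log2 fold change of -0.63 (SE 0.0603). The other genes called lower were MAP3K5, at -0.55 (SE 0.0742), and WFS1, at -0.24 (SE 0.0578).

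Other genes around the members, 105 in 7 lists, gave 28 higher and 35 lower of 102 tested. With upper-quartile factors 40 were higher and 28 lower, and by total counts alone 52 were higher and 17 lower. Of all 18311 genes tested, 30.2% were higher and 29.5% lower with TMM factors. That whole table gave 6994 higher and 4171 lower with upper-quartile factors, and 8615 and 3039 by total counts alone. The split of each list below is to be read beside these. Of 9 tested genes that process the factors or pair with them, 3 were higher and 3 lower (6 and 2 by total counts alone, 4 and 2 with upper-quartile factors). CREB3L1, a membrane-bound factor of the same family as CREB3L2, rose by 1.74 (SE 0.125) to 7.04 ± 0.544 normalized CPM under diclofenac, against 2.10 ± 0.217 under vehicle. RTCB, the ligase that joins the XBP1 exons after IRE1 has cut, fell by 0.45 (SE 0.0460) to 202 ± 8.80 normalized CPM under diclofenac, against 277 ± 6.93 under vehicle. MBTPS1 and MBTPS2, the proteases that cut ATF6, gave 0.03 (SE 0.0481) and -0.0050 (SE 0.0544), and neither passed.

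Glycoprotein folding genes split 3 higher and 5 lower of 11 (5 and 4 by total counts alone, 5 and 5 with upper-quartile factors). MOGS, the first glucosidase to trim the sugar chain, fell by 0.59 (SE 0.0425) and CLGN, a calnexin relative, rose by 0.51 (SE 0.0590). Other disulfide enzymes split 3 and 3 of 14 (5 and 1 by total counts alone), with the peroxiredoxin PRDX4 lower by 0.42 (SE 0.0415) and the J-domain reductase DNAJC10 higher by 0.21 (SE 0.0411). Other degradation factors split 6 and 6 of 20 (12 and 3 by total counts alone, 11 and 5 with upper-quartile factors). VCP, the ATPase that pulls substrates out of the membrane, fell by 0.48 (SE 0.0472), and HERPUD2, a relative of HERPUD1, rose by 0.27 (SE 0.0642).

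Targeting, translocation and signal peptidase genes gave 2 higher and 11 lower of 25, but 9 higher and 3 lower by total counts alone and 4 and 7 with upper-quartile factors. SSR4 of the translocon-associated complex fell by 0.51 (SE 0.0515) and TRAM1, a translocon-associated membrane protein, rose by 0.36 (SE 0.0515). Genes of exit and retrieval split 4 and 4 of 13 (8 and 2 by total counts alone, 5 and 3 with upper-quartile factors, 2 and 5 with DESeq2 size factors), with SEC24D of the vesicle coat higher by 0.28 (SE 0.0592) and SEC13 of the same coat lower by 0.32 (SE 0.0502).

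**Figure D5:**
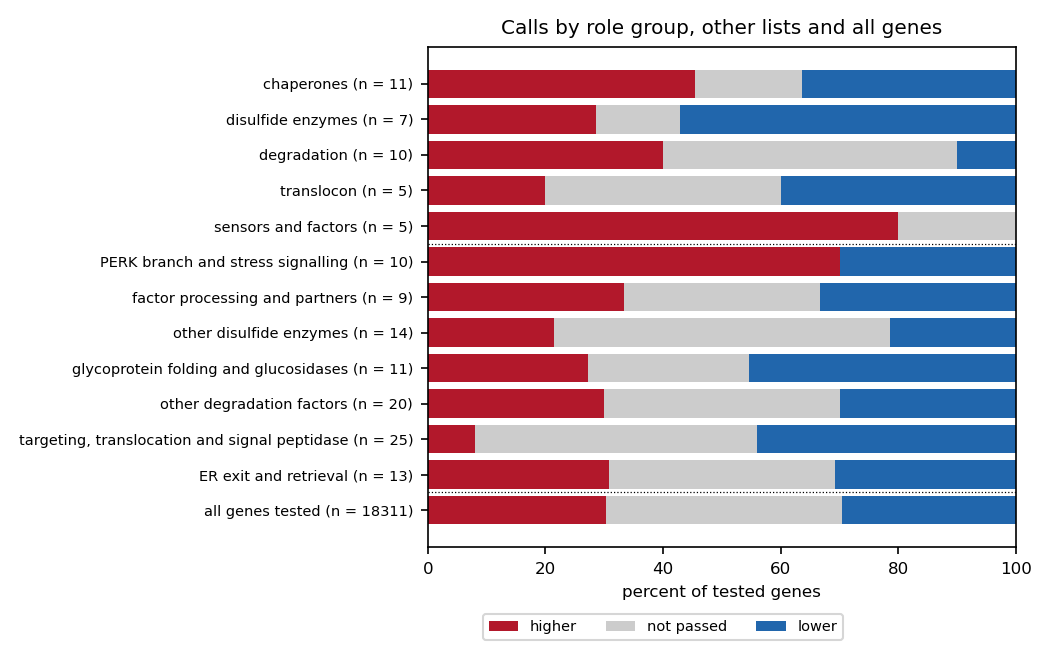
Percent of tested genes called higher, not passed or called lower by edgeR with TMM factors, for the 5 role groups of members, the 7 lists of other genes and all 18311 genes. Sensors and factors and the PERK list have the largest shares higher, and targeting and translocation the smallest, a share that turns to 9 higher and 3 lower by total counts alone.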

How the data were processed

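Gene counts were analysed for 4 libraries of TE11 cells under diclofenac and 3 under vehicle. The values are whole-number counts per gene deposited by the authors, with no normalization. The submitters' processing notes name DESeq and the mouse build GRCm38, while the rows carry human symbols; aligner, annotation and use of strand are not given in the sources used here. Pairs of libraries of a group differed beyond sampling noise (chi-square per degree of freedom 2.17 to 7.40).

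Genes were filtered with filterByExpr (minimum count 10, minimum total 15), leaving 18311 with 99.9% of counts, scaled by TMM and tested by edgeR 4.0.16 (quasi-likelihood, R 4.3.3, group as the only term) with Benjamini-Hochberg adjustment over all genes tested; standard errors come from the F statistic. Ratios used a pseudocount of 0.5 counts. The test was tried on simulated counts with known changes, in far fewer genes than were called in the data. It recovered 32 of 50 changes of 1.25-fold, 32 of 48 of 1.5-fold, 45 of 50 of 2-fold and 49 of 49 of 4-fold. Of its 176 calls, 18 were on unchanged genes.

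The members and lists were chosen with earlier results of these data known. Named with values in every library are HSPA5, HSP90B1, DNAJB9, HERPUD1, XBP1, ERN1 and ATF6, and the 2 largest called rises and falls of each role. Of other genes, EIF2AK3, ATF4, DDIT3, PPP1R15A and TRIB3 and the largest called rise and fall of each list are named; others were chosen after their values were seen. Alternatives were DESeq2 size factors, upper-quartile factors, total counts, the DESeq2 1.42.0 Wald test, limma 3.58.1 with trend, no filter and a stricter one, a 1.5-fold minimum, leaving out each library and the replicate number as a block. Summing members with pseudogene rows was added later.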

Additional observations from a re-analysis of the deposited data

Results flagged for a closer look

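SYVN1, the ubiquitin ligase HRD1, stood at 62.4 normalized CPM in diclofenac replicate 3, while the other 3 diclofenac libraries lay between 65.0 and 65.4. It stood out because its gap to the nearest library was 0.862 of the whole range, past Dixon's limit at the 95% level for 4 libraries. Of 52 sets of 4 diclofenac libraries looked at (38 members and 14 ratios), this was the only one, and chance alone gives about 1 in 20.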

How the results depend on the processing

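The count of called members was 27 and ran from 25 to 34 over the other scalings, tests, filters and left-out libraries. Scaling by total counts gave 26 higher, against 16, and a minimum change of 1.5-fold left 6 called, 4 higher and 2 lower. By total counts alone the log2 fold changes of PDIA3 and PDIA4 turned to 0.0018 and 0.032. Over the single members, 526 of 573 values kept their side of the threshold, 20 lost a call, 25 gained one and 2 were the turned values above. Signs also turned in 5 values of members that had not passed: MANF in 3 settings, SEC61A1 by total counts and DERL1 without vehicle replicate 1. The order of DERL3 and SDF2L1 turned without diclofenac replicate 3 (-0.92 and -0.98). The causes were not tested. Of the 140 alternative values of the 14 ratios, only those with another pseudocount could be tested, and these kept their side of the threshold. With a library left out no p under 0.05 was possible, and pairing by number had no test. Those values moved by less than 1 SD. The replicate numbers do not pair the libraries: deviations of same-numbered libraries correlated at 0.00087, 0.022 and -0.047 over 18311 genes. With the replicate number as a block, 26 members were called (15 higher, 11 lower), with HSP90B1 lost (0.15, edgeR adjusted p = 0.0867). Depth limits DERL3 most, with 54 to 125 counts a library.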

Other observations

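Diclofenac replicate 3 was the highest of the 4 diclofenac libraries for 9 of 11 chaperones and the lowest for 7 of 10 degradation factors, against 28.5% highest and 29% lowest over the 18311 genes tested. It was the highest for 3 and the lowest for 1 of 7 disulfide enzymes, the highest for 2 and the lowest for 2 of 5 translocon members, and the highest for 1 and the lowest for 3 of 5 sensors and factors. For HSP90B1 it stood at 1111 normalized CPM, against 909 to 1006 in the other 3, and for CRELD2 at 88.8, against 71.2 to 77.8. For HERPUD1 it stood at 91.2, against 94.1 to 101, and for DERL1 at 62.3, against 71.1 to 74.7. This was seen after the values were examined and was not tested. Without replicate 3, 28 members were called, 17 higher and 11 lower, with HSP90B1 no longer among them.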
